A study of Mus musculus with 6 samples.

Results

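The 10 genes described here, Mrc1, Cd163, Clec10a, Arg1, Retnla, Chil3, Lyve1, F13a1, Folr2 and Stab1, mark macrophages that reside in tissues or that have been alternatively activated. They were chosen by name, as all probe sets whose only annotated gene symbol is one of them or its older alias. This gave 11 probe sets of 45037 that are not controls, and 10 genes of 18193, with 2 probe sets for Lyve1. A further probe set annotated to both Chil3 and Chil4 was left out. The genes were compared between epididymal white adipose tissue of 3 Pparg ldi/+ mice and of 3 litter-matched wild-type mice, all male, 10 weeks old and of the mixed strain C57BL6;129Sv. Pparg ldi/+ mice carry 1 ldi allele of Pparg, which the labels connect with lipodystrophy. Each Affymetrix MOE430v2.0 array took RNA of 1 mouse. The RNA came from the whole pad, so adipocytes, vessels, stroma and immune cells are all in it.

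Macrophages that live in fat without overt inflammation lie along vessels and between adipocytes and carry scavenger and lectin receptors such as the mannose receptor. In mice, interleukin-4 and interleukin-13 act through the transcription factor STAT6 to induce a set of genes in them that includes Arg1, Retnla, Chil3, Mrc1 and Clec10a, and PPARG in the macrophage itself is known to take part in this programme. In obese or inflamed fat, recruited macrophages of other activation states are added to the resident ones.

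Signals were scaled to a common trimmed mean per array, and differences are given as log2(signal + 32) in Pparg ldi/+ minus wild type. Of the 10 genes, 8 were bright enough to be tested. In Pparg ldi/+ fat 6 rose, 1 fell and 1 did not pass the threshold of 0.05 on the adjusted p of limma. For comparison, 16.3% of all 11201 genes tested rose and 16.4% fell, together 32.7%. The median log2 difference was 0.86 over the 8 genes and -0.00 over all genes tested. The receptor and lectin genes Folr2, Clec10a, Mrc1 and Stab1 rose 2.24-fold to 2.52-fold, Cd163 and F13a1 rose 1.44-fold to 1.47-fold, and Retnla fell 1.81-fold. Arg1 and Chil3 were too dim to be tested. Over all probe sets, where 29% of 22519 tested were called, 9 of the 11 were tested, 6 rose and 1 fell.

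On the same arrays Pparg read 1732, 1709 and 1901 in Pparg ldi/+ and 4378, 4440.3 and 4998 in wild type, and fell by 1.35 (SE 0.084, limma adjusted p = 1.04e-05). Whether its probe set reads transcripts of the ldi allele is not known here, so less transcript and an allele that is not read cannot be told apart. Summed over 5 adipocyte markers, the signal was 49831 to 56240 in Pparg ldi/+ and 87986 to 100539 in wild type. Of 7 markers of the epididymis tested, 4 rose, but 5 of the 7 passed the filter only through the Pparg ldi/+ arrays, and with dim genes tested as well 0 of 13 rose. The summed signal of the 13 measured was 23388, 32068 and 908 on Pparg ldi/+ arrays 1, 2 and 3, against 795 to 1542 in wild type. The part of epididymal tissue in the results was not tested. Array 3, where these markers were low, was also set alone against wild type, where 14.4% of 11155 genes passed. In that fit a single Pparg ldi/+ array has no spread of its own and is assumed to vary like the wild-type arrays. In it the same 6 genes rose, and Retnla, at -0.50, did not pass (limma adjusted p = 0.0571). In bulk tissue fewer cells of a type and less RNA per cell cannot be told apart.

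**Figure D1:**
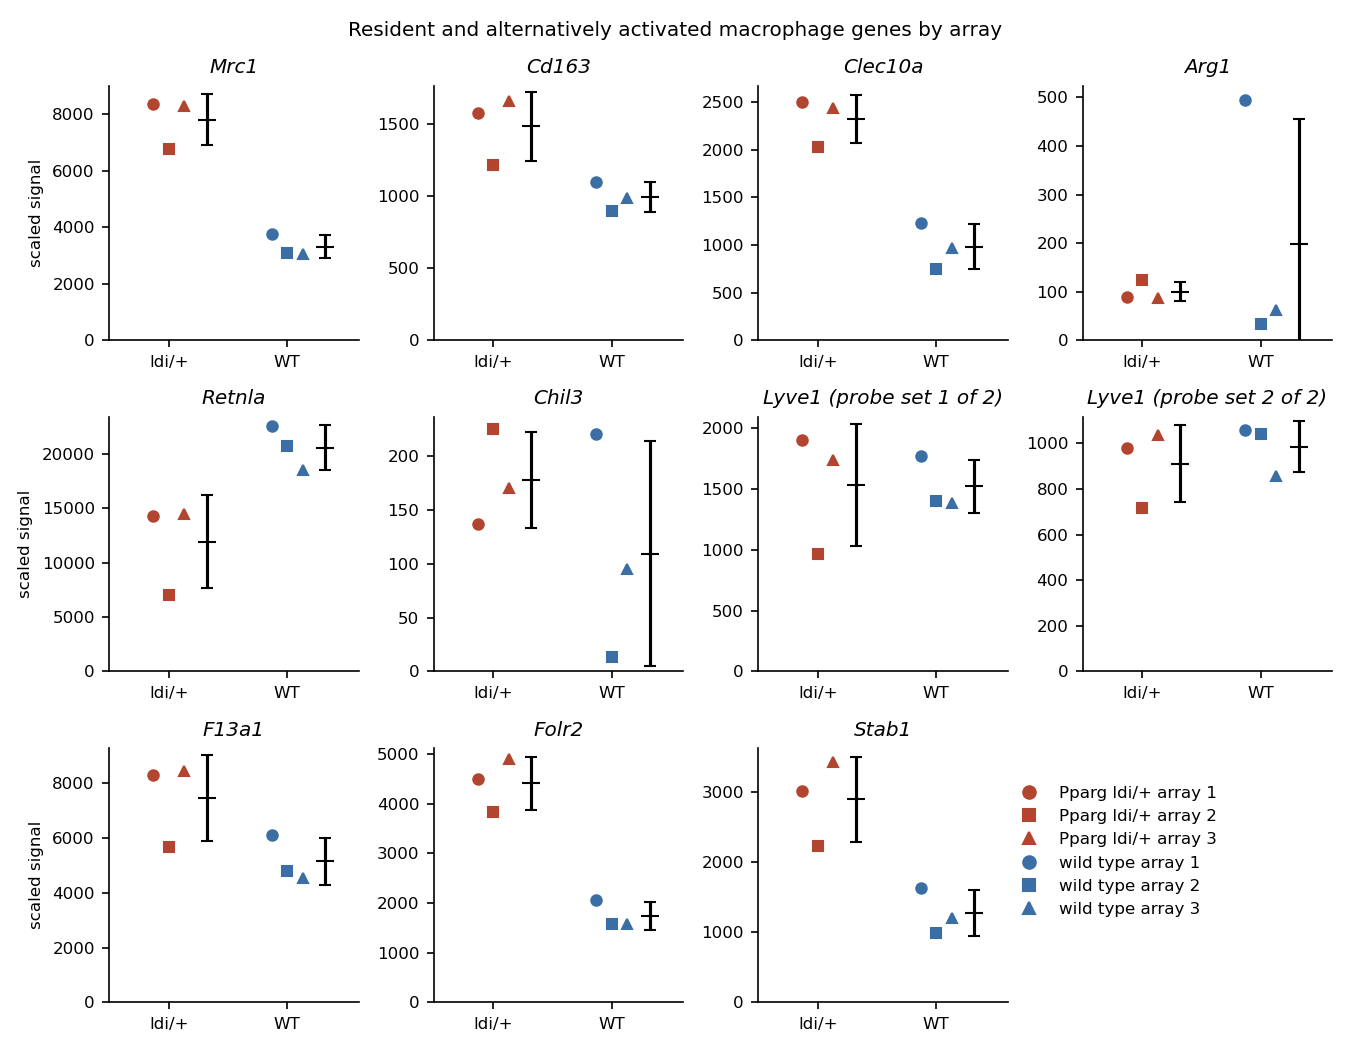
Scaled signal (linear, axes from 0) of the 11 probe sets on each array, Pparg ldi/+ on the left and wild type on the right of each panel, with symbols for array number and black bars for mean ± SD over 3 arrays (the Arg1 bar in wild type runs below the axis). Folr2, Clec10a, Mrc1, Stab1 and Cd163 lie higher on every Pparg ldi/+ array than on any wild-type array, and Retnla lies lower.

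Mrc1 encodes the mannose receptor CD206, an endocytic receptor for glycans. Its signal was 8355, 6775 and 8298 on Pparg ldi/+ arrays 1 to 3 and 3775, 3080.5 and 3063 on wild-type arrays 1 to 3. The lowest Pparg ldi/+ array was well above the highest wild-type array. The means were 7809 ± 896 in Pparg ldi/+ and 3306 ± 406 in wild type (SD, n = 3 each), a log2 difference of 1.23 (95% confidence interval 0.98 to 1.49, SE 0.113, limma adjusted p = 8.04e-05).

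Clec10a encodes the galactose-type lectin MGL1, also called CD301a. It had signals of 2498, 2028 and 2435 in Pparg ldi/+ and 1229, 751 and 969.5 in wild type, again without overlap. Clec10a differed by 1.23 on the log2 scale (95% confidence interval 0.85 to 1.61, SE 0.167), with a limma adjusted p of 0.000681. The signal of Mgl2, which encodes the related lectin CD301b, was 1182, 853 and 1534 in Pparg ldi/+ and 974, 1063 and 906 in wild type, and the groups overlapped. Mgl2 differed by 0.23 (limma adjusted p = 0.376). The difference between Clec10a and Mgl2 was not tested.

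Folr2, which encodes folate receptor beta of myeloid cells, had the largest log2 difference of the 8 genes tested. Its signal was 4510.2, 3835 and 4895 in Pparg ldi/+ and 2060.1, 1570.1 and 1578 in wild type. No arrays overlapped, and Folr2 differed by 1.33 (95% confidence interval 1.04 to 1.63, SE 0.13), with a limma adjusted p of 0.00011. Folr1, the folate receptor alpha gene, was at -0.09 (limma adjusted p = 0.847).

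The scavenger receptor genes rose by different amounts. Stab1 encodes stabilin-1, which is found on macrophages and on some endothelia. It had signals of 3024, 2241 and 3435 in Pparg ldi/+ and 1639, 997 and 1207 in wild type, a log2 difference of 1.17 (95% confidence interval 0.71 to 1.62, SE 0.199, limma adjusted p = 0.00227). Cd163, the receptor for haptoglobin-bound haemoglobin, had signals of 1577, 1212 and 1659 in Pparg ldi/+ and 1100.0, 893 and 984 in wild type. Its groups did not overlap either, but the gap between the nearest arrays was small, and Cd163 differed by 0.56 (95% confidence interval 0.25 to 0.86, SE 0.134), with a limma adjusted p of 0.0128. Without Pparg ldi/+ array 1 Cd163 no longer passed (0.51, adjusted p = 0.0538). The confidence intervals of Stab1 and Cd163 overlap.

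Blood endothelial markers went the other way from Stab1. Of 8 tested, with Stab1 itself left out, 7 fell and 0 rose, and their median was -1.04. Their summed signal was 8738 to 10549 in Pparg ldi/+ and 18958 to 20690 in wild type. The part of endothelium in the Stab1 difference was not tested. Stab2, the paralog of Stab1 found on sinusoidal endothelium, was too dim to be tested, with 152, 141 and 162 in Pparg ldi/+ and 152, 97.6 and 96.5 in wild type.

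F13a1 encodes the A subunit of coagulation factor XIII, which macrophages, monocytes and megakaryocytes make. Its signal was 8309.7, 5669 and 8463.5 in Pparg ldi/+ and 6123, 4793 and 4543 in wild type. Pparg ldi/+ array 2 lay below wild-type array 1, so the groups overlapped. The log2 difference of 0.52 (95% confidence interval 0.14 to 0.91, SE 0.167, limma adjusted p = 0.0413) passed the threshold narrowly. The call ended without Pparg ldi/+ array 1 (0.44), without Pparg ldi/+ array 3 (0.42), without wild-type array 2 (0.48) and without wild-type array 3 (0.44), where the adjusted p was 0.115 to 0.139, and also with no filter on dim genes (0.0731), with no intensity trend in the variance (0.0764) and with the mean of probe sets per gene (0.0526). Of 3 platelet and megakaryocyte markers tested beside it, 0 rose and 0 fell, with summed signals over 5 measured of 754 to 830 in Pparg ldi/+ and 715 to 878 in wild type.

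Lyve1 encodes a hyaluronan receptor of lymphatic endothelium and of macrophages that lie along vessels. Its brighter probe set read 1905, 964 and 1743 in Pparg ldi/+ and 1776, 1404 and 1390.3 in wild type. The other read 981, 718 and 1035 in Pparg ldi/+ and 1059, 1039 and 856 in wild type. In both probe sets Pparg ldi/+ array 2 was the lowest of all 6 arrays and the other arrays overlapped. The log2 difference was -0.04 (95% confidence interval -0.56 to 0.49, limma adjusted p = 0.922) in the brighter and -0.12 (95% confidence interval -0.46 to 0.22, adjusted p = 0.61 in the fit over probe sets) in the other. The sign turned to 0.26 without Pparg ldi/+ array 2, to 0.08 without wild-type array 1, to 0.20 with Pparg ldi/+ array 3 alone and to 0.02 on unscaled signals, none of them past the threshold. Among 4 other lymphatic markers tested, 2 fell and 0 rose, with a median of -0.19. Prox1, the transcription factor that defines lymphatic endothelium, was dim, with 27.2 to 41.2 in Pparg ldi/+ and 33.3 to 49.8 in wild type.

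Retnla encodes RELM-alpha, also called FIZZ1, a small secreted protein of the resistin family that interleukin-4 induces in mouse macrophages. It was the only one of the 8 genes tested that fell. Its signal was 14344, 7020.5 and 14477 in Pparg ldi/+ and 22573, 20719 and 18506.5 in wild type. All Pparg ldi/+ arrays were below all wild-type arrays, and array 2 was far below the other Pparg ldi/+ arrays. The means were 11947 ± 4267 in Pparg ldi/+ and 20599 ± 2036 in wild type (SD, n = 3 each), a log2 difference of -0.85 (95% confidence interval -1.42 to -0.29, SE 0.248, limma adjusted p = 0.0287). Without array 2 the difference was -0.51 and still passed. It did not pass without wild-type array 1 (-0.79, adjusted p = 0.0875) or array 2 (-0.85, adjusted p = 0.0751), with no filter on dim genes (adjusted p = 0.0554) or with no intensity trend (adjusted p = 0.0556). Of 5 adipocyte markers tested in the same RNA of the whole pad, 4 fell and 0 rose, with a median of -1.17. Which cells gave the Retnla signal was not tested.

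Permuting the 6 arrays exactly, two-sided, gave p = 0.1 for Retnla and for each of the 5 genes that rose without overlap, the smallest that 3 against 3 arrays allow. It gave 0.2 for F13a1 and 0.9 for the brighter probe set of Lyve1. Over all genes tested, 23.6% were higher and 24% lower in Pparg ldi/+ without overlap.

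Its relative Retn, which encodes the adipocyte hormone resistin, read 1361, 1755 and 1298 in Pparg ldi/+ and 20968, 21367 and 18440.3 in wild type. Retn fell by 3.76 (limma adjusted p = 4.5e-07). Retnlb read 5.66 to 10.6 in Pparg ldi/+ and 4.74 to 6.15 in wild type, too dim to be tested. The difference between Retn and Retnla was not tested.

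The sequences before the starts of Mrc1, which rose, and of Retnla, which fell, are shown. They were picked after these directions were seen, and whether their letters bear on the directions was not tested. Whether both signals come from the same cells was not tested either. The sequences are the 250 bases before the annotated start, from RefSeq, build GRCm38.p6, both on the plus strand. They lie at chr16:48842359-48842608 for Retnla and chr2:14229164-14229413 for Mrc1. Capitals mark matches on either strand to TTCNNNNGAA (the STAT6 spacing), TTCNNNGAA (other STATs), GAGGAA (the core of PU.1 sites), TTGCNNAA (C/EBP), AGGTCA (the nuclear receptor half-site) and TATAAA.
Retnla: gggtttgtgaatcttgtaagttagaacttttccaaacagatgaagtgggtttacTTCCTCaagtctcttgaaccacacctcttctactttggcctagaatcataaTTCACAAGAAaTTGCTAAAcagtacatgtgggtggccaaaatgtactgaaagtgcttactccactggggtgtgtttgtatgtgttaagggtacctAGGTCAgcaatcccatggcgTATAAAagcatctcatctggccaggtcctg
Mrc1: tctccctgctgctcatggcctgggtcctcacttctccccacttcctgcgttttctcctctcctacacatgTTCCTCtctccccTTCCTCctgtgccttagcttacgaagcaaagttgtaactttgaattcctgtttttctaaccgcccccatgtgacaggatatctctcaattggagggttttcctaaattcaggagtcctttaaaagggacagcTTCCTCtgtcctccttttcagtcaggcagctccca
The Retnla window holds TTCACAAGAA from base -145, counted back from -1 next to the start, and TTGCTAAA from base -134, directly downstream with 1 base between them. It also holds TTCCTC at -196, AGGTCA at -50 and TATAAA at -30. The Mrc1 window holds TTCCTC, the reverse complement of GAGGAA, from bases -180, -167 and -35 and none of the other letters. Windows of 300 bases, 250 before to 50 after the start, were found for 7 of the 10 genes, 9 windows in all. The STAT6 letters were in 1 of these 9 windows and in 6.95% of 32851 windows of all genes. TTCNNNGAA was in 1 (8.30% of all), GAGGAA in 5 (28.3%), TTGCNNAA in 1 (10.8%), AGGTCA in 1 (16.3%) and TATAAA in 2 (13.6%). A match is a run of letters, not a shown binding site.

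Arg1 encodes arginase 1, which splits arginine into ornithine and urea, and Chil3 encodes the chitinase-like lectin Ym1. Arg1 read 90.1, 124 and 87.7 in Pparg ldi/+ and 496, 33.6 and 63.6 in wild type. Its wild-type mean of 198 ± 259 (SD, n = 3) rests on array 1 alone, and all Pparg ldi/+ arrays lie between the wild-type extremes. The log2 difference was -0.18, and 0.73 without wild-type array 1, and neither passed when dim genes were tested too (limma adjusted p = 0.903 and 0.149). Chil3 read 137, 226 and 171 in Pparg ldi/+ and 221, 13.1 and 95 in wild type, and a log2 difference of 0.87 (adjusted p = 0.36 with dim genes tested). Without wild-type array 2 the Chil3 difference was 0.21, bright enough to be tested and not past the threshold (adjusted p = 0.686). Neither a rise nor a fall of these genes was detectable at these signals. The closest relatives of Chil3 were also dim or barely passed: Chil4 read 62.3 to 91.8 in Pparg ldi/+ and 29.1 to 96.4 in wild type, and Chil1, with a wild-type mean below the filter, rose by 1.10 (adjusted p = 0.0406). Arg2, the mitochondrial arginase gene, read 69.7 to 79.0 in Pparg ldi/+ and 28.4 to 170 in wild type.

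**Figure D2:**
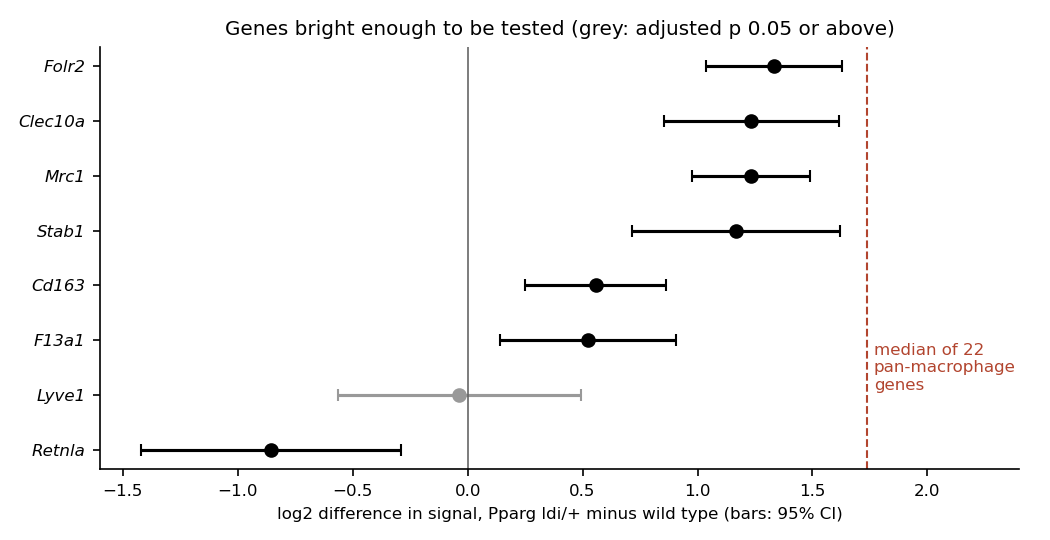
Log2 difference in signal (x axis), Pparg ldi/+ minus wild type, for the 8 genes tested, with bars for the 95% confidence interval of limma over 6 arrays and grey for the gene that did not pass. The dashed line is the median of 22 pan-macrophage genes, 1.74, which lies above the upper end of every interval.

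The arrays of a genotype also differed among themselves. Within Pparg ldi/+, array 2 read lowest in 9 of the 11 probe sets, all but those of Arg1 and Chil3. Within wild type, array 1 read highest in all 11. The mean log2 level of 22 pan-macrophage genes, such as Adgre1, Csf1r and Cd68, was also highest on wild-type array 1, at 10.9 against 10.5 and 10.4 on the other wild-type arrays. On Pparg ldi/+ arrays it was 12.3, 12.4 and 12.3, highest on array 2. The pan-macrophage list also holds genes that other leukocytes express, such as Itgam. Levels set against this list are therefore not levels per macrophage.

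All 22 pan-macrophage genes rose, with a median of 1.74 and a range of 0.37 (Lyz2, lysozyme) to 3.26 (Aif1, the IBA1 gene). Mpeg1, which encodes a pore-forming protein of phagocytes, was at 2.57 and the complement gene C1qb at 1.70. Of the 22, 17 had a larger difference than Folr2, Clec10a and Mrc1, 18 a larger one than Stab1, 21 a larger one than Cd163 and F13a1, and 22 a larger one than Lyve1 and Retnla. The pan-macrophage genes Csf1r at 0.76, Itgam at 0.60 and Lyz2 were among the few below Mrc1.

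When each gene was set against the mean log2 of the 22 on the same array, all 8 were lower in Pparg ldi/+ without overlap. This holds for 96% of all genes tested, so it does not single them out. Set against the other 21 in the same way, 7 of the 22 pan-macrophage genes were lower without overlap and 6 higher. Within a list such differences must go both ways, so these counts are no reference for the members. The value of Mrc1 was 0.76, 0.37 and 0.73 in Pparg ldi/+ and 1.01, 1.09 and 1.21 in wild type, a difference of -0.49. That of Retnla was 1.54, 0.42 and 1.53 in Pparg ldi/+ and 3.58, 3.83 and 3.79 in wild type, a difference of -2.57. The others were lower by 0.38 to 1.75: Folr2 -0.38, Clec10a -0.48, Stab1 -0.55, Cd163 -1.16, F13a1 -1.19 and Lyve1 -1.75. Each has an exact permutation p of 0.1. On this scale F13a1 had an SD of 0.371 in Pparg ldi/+ and 0.036 in wild type, against 0.325 in Pparg ldi/+ and 0.228 in wild type before (log2, n = 3 each). Not all genes had a smaller wild-type SD this way: that of Cd163 was 0.178, against 0.145 before.

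**Figure D3:**
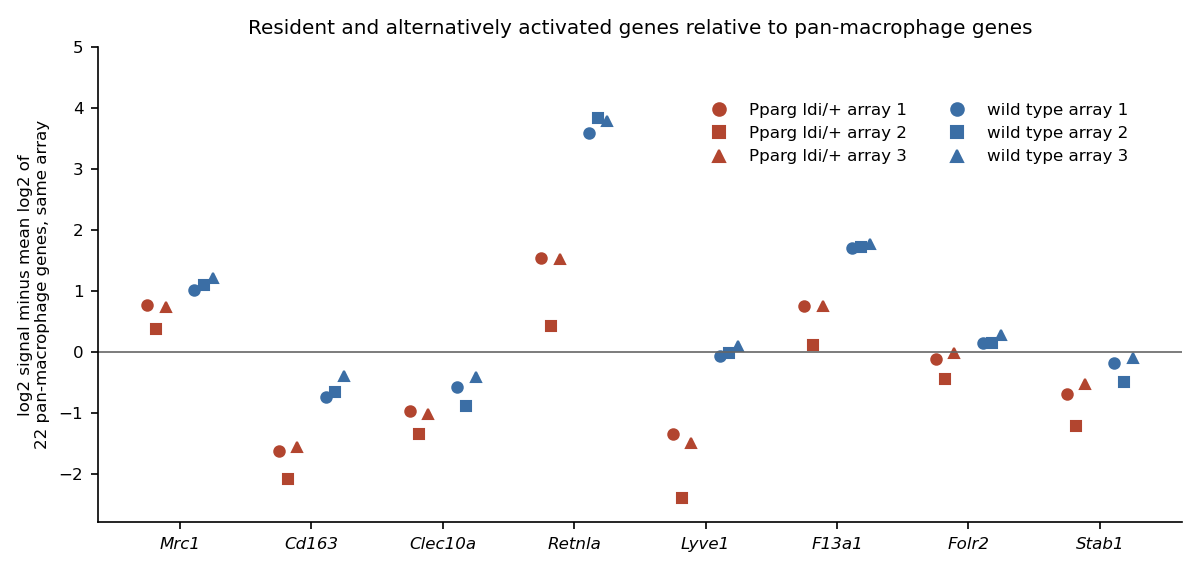
Log2 signal of the 8 genes tested minus the mean log2 signal of 22 pan-macrophage genes on the same array (y axis), with Pparg ldi/+ arrays left of wild-type arrays for each gene. The distance between the groups is smallest for Folr2 (-0.38) and largest for Retnla (-2.57), and Pparg ldi/+ array 2 is the lowest point of each gene.

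Among other genes of alternative activation and of resident macrophages, 16 of 33 tested rose and 0 fell, with a median of 0.50. The smallest p-values were those of Ms4a7, which encodes a membrane protein of macrophages, at 3.06 (limma adjusted p = 2.38e-06) and of Clec7a, the beta-glucan receptor dectin-1, at 1.79 (adjusted p = 3.17e-06). Others were near 0, such as Selenop at 0.03 and Pltp at 0.07, which other cells of fat express too, and Timd4, a marker of long-lived resident macrophages, at -0.08, none of which passed. When dim genes were tested as well, 16 of 39 rose, where 9.73% of 18193 genes did.

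The signalling genes of the interleukin-4 and interleukin-13 pathway were also measured. Of 11 tested, 3 rose and 2 fell, with a median of 0.13 and a range of -1.35 (Pparg) to 0.80 (Il13ra1). Over all genes tested 16.3% rose and 16.4% fell, and counts this small are not read as a result about the pathway. With Pparg ldi/+ array 3 alone the median was 0.08. The kinase gene Jak1 was at 0.29 (limma adjusted p = 0.00921), the receptor gene Il13ra1 at 0.80 (adjusted p = 0.0109) and Il4ra, the receptor chain that binds interleukin-4, at 0.50 (adjusted p = 0.0457). The genes that fell were Ppard, at -0.42 (adjusted p = 0.0357), and Pparg, the mutated gene itself, with the limit on its probe set given above. Stat6 itself read 2449, 2447 and 2340.3 in Pparg ldi/+ and 2369, 2010.4 and 2248 in wild type, and its 0.13 was short of the threshold (adjusted p = 0.281). The cytokine genes were too dim to be tested. Il4 read 90.8 to 109.9 in Pparg ldi/+ and 44.4 to 121 in wild type, and Il13 read 12.9 to 24.5 in Pparg ldi/+ and 13 to 92.5 in wild type. Markers of eosinophils, a source of interleukin-4 in fat, were dim in both groups: none of the 5 measured could be tested (0), and their summed signal was 236 to 266 in Pparg ldi/+ and 124 to 275 in wild type.

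Genes of other macrophage states were also measured. Of 11 genes of classical activation tested, 10 rose and 0 fell, with a median of 1.31; 11 more were too dim. Of those tested, 4 (Il1b, Cxcl10, Cxcl2 and Fpr2) had wild-type means below the filter and passed it only through the Pparg ldi/+ arrays, so this count is no support for a rise of the list. When dim genes were tested as well, 9 of 22 rose, with a median of 0.98, where 9.73% of 18193 genes rose. The interferon-induced chemokine gene Cxcl10 was at 3.82 and the transcription factor gene Irf5 at 1.31. The median of the 10 classical activation genes tested with Pparg ldi/+ array 3 alone was 1.18. Of 13 genes of lipid-associated macrophages, 9 rose and 1 fell, with a median of 1.19. Over all genes tested 16.3% rose and 16.4% fell. The proton pump gene Atp6v0d2 was at 2.54 and the macrophage elastase gene Mmp12 at 3.04, and the gene that fell was Apoe, at -0.32. Apoe read 18093 to 19192 in Pparg ldi/+ and 20891 to 24950 in wild type. Which cells of the pad gave the signals of this list was not tested.

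**Figure D4:**
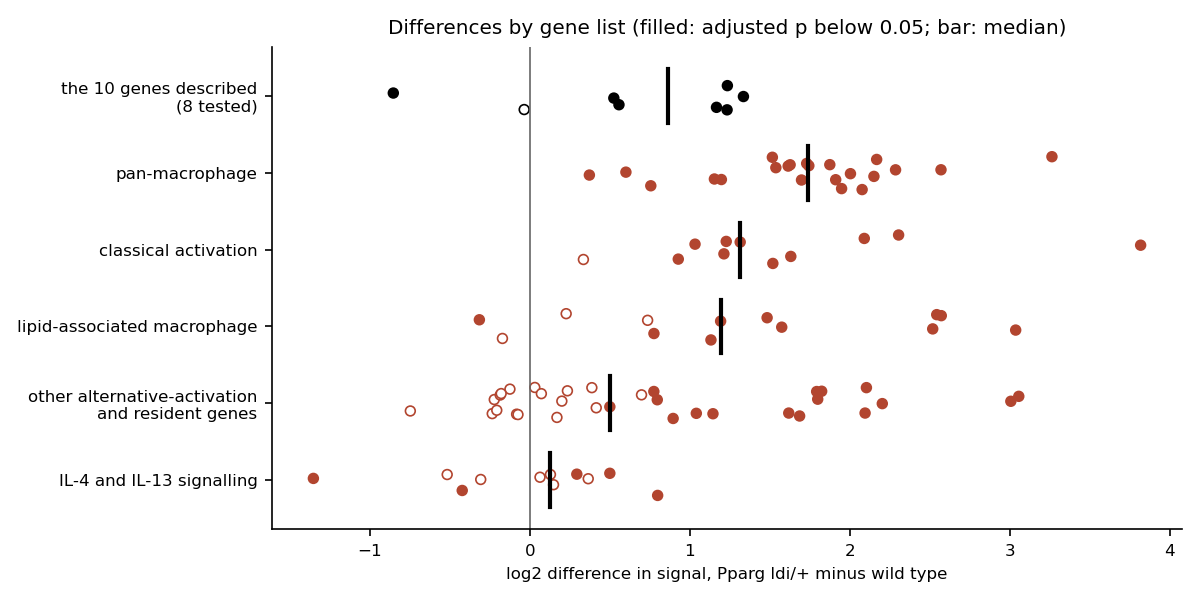
Log2 difference in signal (x axis), Pparg ldi/+ minus wild type, of each tested gene by list, filled where the adjusted p was below 0.05, with black bars for medians. The median is 0.86 for the 8 genes described, 1.74 for pan-macrophage genes, 1.31 for classical activation, 1.19 for lipid-associated macrophages, 0.50 for the other alternative-activation and resident genes and 0.13 for interleukin-4 and interleukin-13 signalling. Of the 11 classical activation genes shown, 4 passed the filter only through the Pparg ldi/+ arrays. With dim genes included the median of that list is 0.98 over 22 genes.

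Among paralogs of the 10 genes, 7 of 19 were bright enough to be tested, of which 3 rose and 1 fell. Over all genes tested 16.3% rose and 16.4% fell. With dim genes tested as well, 2 of 19 rose, near the 9.73% of 18193 genes that did. Counts this small are not read as a result about the paralogs. Besides Chil1 and Retn, the genes that passed were Cd44, a hyaluronan receptor related to Lyve1, at 2.02 (limma adjusted p = 0.000132), and Mrc2, a collagen-binding relative of the mannose receptor, at 0.93 (adjusted p = 0.00767). Tgm2, a transglutaminase related to F13a1, was at -0.08 (adjusted p = 0.597). Cd44 read 8058 to 8868 in Pparg ldi/+ and 1444 to 2822 in wild type. The rest, Cd163l1, Asgr1, Asgr2, Chia1, Chit1, F13b, Izumo1r and Tgm1, read 186 or less on every array.

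Markers of other cells were measured beside these genes. The monocyte markers Ccr2 and Plac8 both rose (2 of 2, where 16.3% of all genes tested did), at 0.96 and 2.81. Plac8 varied among the Pparg ldi/+ arrays, with 3205, 5795 and 1464 on arrays 1 to 3, against 333 to 469 in wild type. The median of Ccr2 and Plac8 was 1.88 over all arrays and 1.28 with Pparg ldi/+ array 3 alone. Of 4 dendritic cell markers tested, 1 rose (Flt3, whose wild-type mean was below the filter), with summed signals over 6 measured of 1136 to 1361 in Pparg ldi/+ and 732 to 1141 in wild type. Of 2 neutrophil markers tested 1 rose, and 8 more were too dim. Of 5 mast cell markers tested, 2 rose (Cpa3 at 1.12 and Mcpt4 at 1.06), with summed signals over 6 measured of 2501 to 3346 in Pparg ldi/+ and 1209.7 to 2362 in wild type, and mast cells too can make interleukin-4 and interleukin-13. The median of the 5 mast cell markers tested was 0.77 over all arrays and 1.15 with Pparg ldi/+ array 3 alone. Of 6 mesothelial markers 5 fell and 0 rose, with a median of -0.74. The part of these cells in the differences described was not tested.

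Retnla had the highest mean signal of the 11 probe sets, so its pattern was compared with the other 11200 genes tested. The 5 whose centred log2 profile over the 6 arrays lay nearest were Ccser2, Bok, Rufy2, Car7 and Klhdc1, with root mean square distances of 0.186 to 0.205. Since they were chosen for this profile, their values are a description only. Bok, a BCL2 family gene, read 364, 216 and 439 in Pparg ldi/+ and 685, 749 and 739 in wild type. The differences of Ccser2, Bok, Car7 and Klhdc1 were -0.99, -1.07, -0.78 and -0.81, and that of Rufy2 was -0.71.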

How the data were processed

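The authors deposited intensities on a linear scale for each of the 6 arrays. The submitters' processing notes name MAS5 for 2 samples, with no version. What scaling was used, and which probe sets were detected, is not given, so none could be called above background. Each array was scaled to a 2% trimmed mean of 500 (factors 2.12 to 2.49), 32 was added and log2 taken. The log2 scale was thus computed here from deposited linear signals, and it understates changes at low signal. The 64 control probe sets among 45101 were dropped, and of the others 34945 have a single gene symbol, 932 several and 9160 none. Symbols were updated by gene number through RefSeq (34741 matched). A gene was read from its brightest probe set, avoiding x_at sets, and genes below a mean log2 of 7.46, the median of all probe sets, were not tested. The test was limma (version 3.58.1, R 4.3.3; lmFit and eBayes with trend, two-sided) over all 11201 genes, p adjusted after Benjamini and Hochberg, passing below 0.05. Rose and fell mean past that threshold. Exact permutation tests used scipy 1.17.1. The fit was tested on simulated data.

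The genes, gene lists and tests were chosen with earlier results of these data known. Named genes are all members, their paralogs, Pparg, the 2 with the smallest p in each direction of each list, and the 5 nearest in profile to the member with the highest signal; Csf1r, Itgam, Lyz2, Aif1, Selenop, Pltp, Timd4, Il4ra, Stat6, Il4, Il13, Prox1, Ccr2, Plac8, Il1b, Cxcl2, Fpr2, Flt3, Cpa3, Mcpt4 and those of the other observations were added after their values were seen. Nothing but the titles' number separates the arrays of a genotype into batches, and p-values measure the spread between single mice.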

Additional observations from a re-analysis of the deposited data

How the results depend on the processing

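The rises of Mrc1, Clec10a, Folr2 and Stab1 passed in all 19 alternatives, with log2 differences of 1.01 to 1.49. Cd163, F13a1 and Retnla kept their direction in all 19 and passed in 17, 11 and 13; none of the 3 passed at an adjusted p of 0.01. The count of members that fell, 1 in the comparison as reported, was 0 over genes and over probe sets with no filter, no intensity trend, Pparg ldi/+ array 3 alone and a threshold of 0.01, and 0 to 1 with an array left out. Lyve1, at -0.04, was 0.019 on unscaled signals and 0.20 with array 3 alone, and -0.22 to 0.26 with an array left out. Of the other alternative-activation and resident genes 1 fell, where 0 had, with quantile normalisation, the brighter 30%, array weights or the mean of probe sets (0 to 1 with an array left out). Of the interleukin-4 and interleukin-13 genes, 0 rose with array 3 alone and 1 at 0.01, and 1 fell with unscaled signals, the mean of probe sets, array 3 alone or 0.01 (1 to 2 with an array left out). Of the lipid-associated genes 0 fell with unscaled signals, array 3 alone or 0.01, and 2 with the brighter 30%, array weights or the mean of probe sets (1 to 2 with an array left out). Of the classical activation genes 5 rose with the brighter 30%, 4 with array 3 alone and 6 at 0.01 (5 to 10 with an array left out). The cause of these changes was not tested. Deviations from the genotype means correlated at -0.13, -0.09 and -0.09 between same-numbered arrays and at 0.036 to 0.076 between the others. Deviations within 3 arrays are tied to each other, so these values cannot decide whether the number marks a litter or another pairing. With the title's number as a replicate block, each of the 8 members tested kept its call (6 rose, 1 fell). Of the lists, the rises numbered 14 in place of 16 among other alternative-activation and resident genes, 2 in place of 3 among interleukin-4 and interleukin-13 genes and among paralogs, and 10 in place of 9 among lipid-associated genes. The number of arrays and the missing detection calls limit what can be said of Arg1 and Chil3. The settings that tested dim genes with an array left out were chosen after seeing the data.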

Other observations

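Pparg ldi/+ array 2, lowest among its genotype for most of the genes described, also stood apart in other immune genes, which were picked after their values were seen. Ccl24, an eotaxin gene that interleukin-4 induces in macrophages, read 411, 66.6 and 435 on Pparg ldi/+ arrays 1 to 3 and 532, 291 and 499 on wild-type arrays 1 to 3. Cd209f, a lectin gene, read 2017, 824 and 1613 in Pparg ldi/+ and 497, 874 and 661 in wild type. In contrast, the interferon-induced chemokine gene Cxcl9 read 766, 2226 and 500.1 in Pparg ldi/+ and 872, 566 and 854 in wild type, and Ccl5 read 1205, 2267 and 873 in Pparg ldi/+ and 260.0, 270.4 and 210 in wild type. Cd40, a co-stimulatory receptor gene, was too dim to be tested and read 116, 338 and 204 in Pparg ldi/+ and 92.0, 101 and 83.7 in wild type. The summed signal of 13 epididymal markers was also highest on array 2, with 23388, 32068 and 908 on Pparg ldi/+ arrays 1 to 3. The part of epididymal tissue in these values was not tested. With 1 mouse per array the difference of array 2 within its genotype has no replicate.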
